A study of Mus musculus with 14 samples.

Results

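The genes described here encode the protein subunits of oxidative phosphorylation, grouped by respiratory complex, in muscle precursor cells sorted from mice of 3 ages. A gene was taken as a member when its symbol in the array's annotation began with Nduf, Uqcr, Cox4, Cox5, Cox6, Cox7, Cox8 or Atp5, or was Sdha, Sdhb, Sdhc or Sdhd. That rule gave 90 genes: 34 of complex I, 4 of complex II, 8 of complex III, 19 of complex IV, 17 of complex V and 8 Ndufaf genes, which encode assembly factors of complex I. Of these, 88 passed the filter on dim signal and were among the 13579 genes tested. The remaining 2 were Cox7b2, above the 40th percentile on 0 of 14 arrays, and Ndufb4, whose only probe set of its own was above it on 2. A further 10 probe sets match a member together with another gene and were not used. Cox7b is not analysed here. Ndufa4, found in complex IV, and its paralogue Ndufa4l2 are counted there.

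Oxidative phosphorylation is the stage of respiration in which mitochondria turn the energy of food into ATP. Complexes I (NADH dehydrogenase) and II (succinate dehydrogenase) feed electrons through ubiquinone to complex III and on through cytochrome c to complex IV (cytochrome c oxidase), which reduces oxygen, while complexes I, III and IV pump protons. Complex V, the ATP synthase, uses the proton gradient to make ATP. Some subunits of complex IV exist as a form found in most tissues and another restricted to heart and skeletal muscle. Quiescent satellite cells, the stem cells of muscle, are known for low mitochondrial content, whereas myofibres are rich in mitochondria.

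Expression was measured on 14 Affymetrix arrays of RNA from C57BL/6 mice: 5 arrays from aged mice (24 months), 4 from middle-aged mice (12 months) and 5 from young mice (2 months). The cells came off digested muscle and were sorted as carrying CD29 and Cxcr4 without CD45, Ter119 or Sca-1, a gate that enriches satellite cells, and no treatment or genotype is labelled. Whether each array stands for a separate animal or for a pool is not labelled, so the p-values measure only the spread between these arrays, which may be technical. Values are log2 of the deposited RMA intensities, whose medians ran from 19.0 to 21.2 between arrays, and levels of different probe sets cannot be set against each other. Differences were tested with limma's moderated two-sided test. P-values were adjusted by the Benjamini-Hochberg method across the 13579 genes, a gene was called where the adjusted p was under 0.05, and errors of differences are standard errors.

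The arrays also parted into a pair of sets that cross the ages. Set 2 held young arrays 2 and 5, middle-aged array 1 and aged arrays 3, 4 and 5, and set 1 the other 8. The sets were read from the values themselves, from the first principal component after centring by age (31.5% of that variance), so they are a description. At equal age, 11 members were higher (12.5%, against 11.2% of all genes) and 8 lower (9.09%, against 9.14%) in set 2, shares close to those of all genes. Because the sets were read from the same values, these counts are no test of a difference between sets. Differences within sets are given for the main results. Satellite cell markers were present at each age: Pax7 averaged 9.52, 9.34 and 9.02 at 2, 12 and 24 months, and Ptprc (CD45) was below the dim-signal filter. The mean of the 7 measured macrophage and blood markers was 5.58 ± 0.57, 5.73 ± 0.47 and 6.17 ± 0.16 at these ages (SD). Of the 7, 6 had a positive sign in aged against young cells (median 0.29), and 0 were called. The mean of the 10 satellite cell and sort markers was 9.23 ± 0.22 on aged arrays (at most 9.48, SD, n = 5). On young arrays it was 9.69 ± 0.14 (at least 9.50, SD, n = 5), so aged and young arrays did not overlap. On middle-aged arrays it was 9.38 ± 0.21 (9.08 to 9.55, SD, n = 4), a range that overlapped with both. Of the 10, 9 had a negative sign in aged against young cells (median -0.42) and 1, the calcitonin receptor gene Calcr, fell (-1.42 ± 0.33, adjusted p = 0.0219). The part of this lower marker level in the differences below was not tested. RNA quality was read from the array's Gapdh and Actb controls, as the log2 signal at the 3' end minus that at the 5' end. This difference was 3.54 ± 0.51 on aged and 4.31 ± 0.54 on young arrays (SD, n = 5 each, exact two-sided permutation p = 0.0714). On middle-aged arrays it was 3.85 ± 0.25 (SD, n = 4, exact two-sided permutation p = 0.190 against young and 0.317 against aged arrays). The 3' signal exceeded the 5' signal on every array (2.89 to 5.05), and a larger value means relatively less 5' signal.

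Beside the levels, the promoters of 2 muscle isoforms of complex IV held fewer CG dinucleotides than those of their general counterparts. The Cox7a and Cox8 pairs are shown because their muscle isoforms were among the members with the largest positive differences with age, and Cox6a2 is named only. Ndufs3 is shown because it was called over the 3 ages. Each sequence is the 250 bases before the gene start in RefSeq's table (GRCm38.p6), read on the gene's strand, with CG dinucleotides in capitals.
Cox7a1, chr7:30183921-30184170, plus strand: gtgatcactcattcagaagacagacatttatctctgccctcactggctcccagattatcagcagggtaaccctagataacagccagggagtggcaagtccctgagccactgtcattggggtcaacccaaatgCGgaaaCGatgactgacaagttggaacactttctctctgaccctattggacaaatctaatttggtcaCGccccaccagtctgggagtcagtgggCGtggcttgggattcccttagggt
Cox7a2, chr9:79759854-79760103, minus strand: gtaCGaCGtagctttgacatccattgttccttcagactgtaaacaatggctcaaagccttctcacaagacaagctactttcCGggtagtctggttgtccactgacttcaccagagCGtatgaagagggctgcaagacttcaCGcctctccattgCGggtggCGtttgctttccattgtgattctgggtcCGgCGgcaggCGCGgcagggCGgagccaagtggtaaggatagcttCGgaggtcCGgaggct
Cox8b, chr7:140900447-140900696, minus strand: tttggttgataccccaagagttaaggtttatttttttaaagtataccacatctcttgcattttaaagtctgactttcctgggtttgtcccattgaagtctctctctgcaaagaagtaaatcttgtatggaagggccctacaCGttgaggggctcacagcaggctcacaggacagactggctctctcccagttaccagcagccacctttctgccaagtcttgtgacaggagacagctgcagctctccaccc
Cox8a, chr19:7217617-7217866, minus strand: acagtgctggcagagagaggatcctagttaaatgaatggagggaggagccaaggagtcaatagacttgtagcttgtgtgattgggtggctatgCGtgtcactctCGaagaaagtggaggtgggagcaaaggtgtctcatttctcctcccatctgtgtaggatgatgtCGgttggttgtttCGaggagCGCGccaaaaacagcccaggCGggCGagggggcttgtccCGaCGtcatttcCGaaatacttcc
Ndufs3, chr2:90904722-90904971, minus strand: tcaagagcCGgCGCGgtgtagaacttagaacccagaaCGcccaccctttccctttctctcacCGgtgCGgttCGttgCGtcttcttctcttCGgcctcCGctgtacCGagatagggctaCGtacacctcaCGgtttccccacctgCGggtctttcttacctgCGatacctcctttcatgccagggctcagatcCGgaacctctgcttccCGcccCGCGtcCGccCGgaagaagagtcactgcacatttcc
Cox7a1 held 4 CG dinucleotides and Cox7a2 14. Cox8b held 1 and Cox8a 11, while Ndufs3 held 21. The 77 promoters of the 72 members that matched by symbol had a median of 15, and all 32841 promoters a median of 6. The motif GCGCANGCGC, bound by the nuclear respiratory factor NRF1, stood on either strand in 12 of the 77 member promoters (15.6%) and in 3.74% of all promoters. The ETS motif CCGGAAG, bound by factors such as GABPA, stood in 14 (18.2%, against 6.91% of all), among them that of Ndufs3. YY1's AAGATGGC was in 1 (1.30%, against 1.56%), TATAAA in 7 (9.09%, against 12.4%) and the E-box CAGCTG in 6 (7.79%, against 13.0%), among them that of Cox8b. A MEF2 motif was in 0 of 77 (2.92% of all). These matches describe letters in a window of fixed length and were searched without regard to overlap between motifs.

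Aged against young cells showed 1 member past the test, the muscle isoform Cox6a2, which rose. Among the 88 members 1 was called higher and 0 lower (1.14% called), against 4.3% of all genes (3.05% higher and 1.25% lower). At an unadjusted p under 0.05, 8 members differed (9.09%), against 16.6% of all genes. The median difference over members was 0.06 on the log2 scale, against -0.05 over all genes, and 55 members (62.5%) had a positive sign, against 41.9% of all genes. Single members ran from -0.45 for Cox7c, a small subunit of complex IV, to 0.76 for Cox8b. The aged arrays all exceeded the young arrays in 3 members (Cox6a2, Ndufa4l2 and Ndufb10, 3.41%, against 3.48% of all genes), and in 1, Cox4i2, every aged array lay below (1.14%, against 1.97%).

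**Figure D1:**
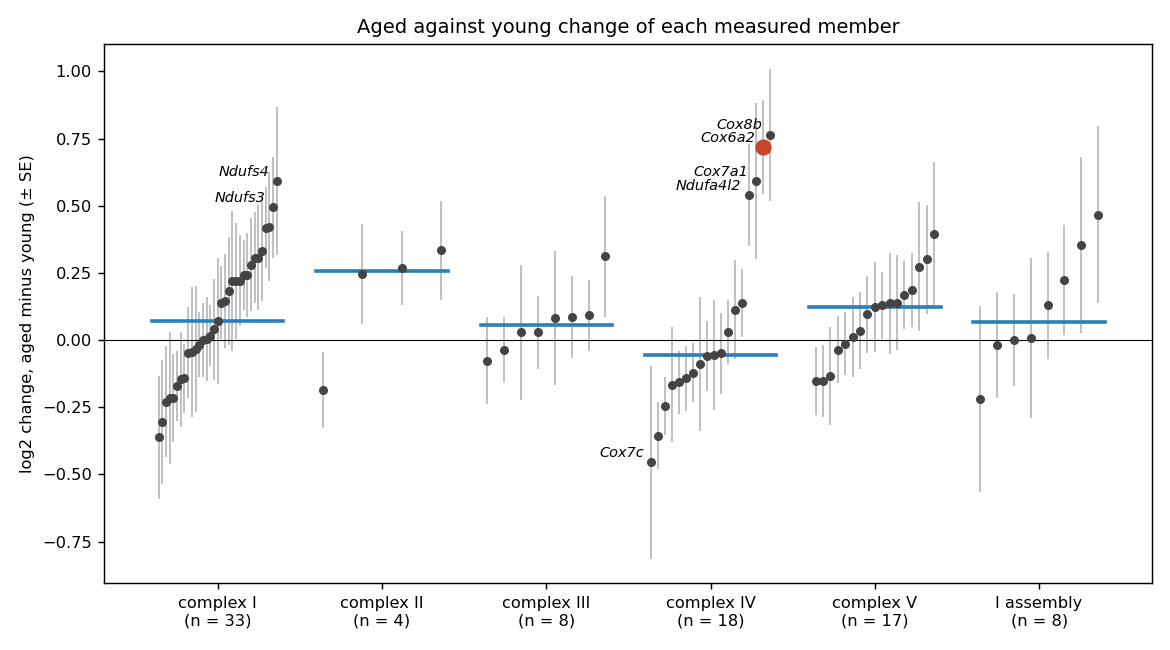
Log2 difference (aged minus young, ± SE) of each of the 88 measured members, sorted within its complex, with the median of each complex as a blue bar and the called member, Cox6a2, in red. Most members lie within 0.25 of zero, and the 4 highest points of complex IV are Ndufa4l2, Cox7a1, Cox6a2 and Cox8b.

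Cox6a2 (Entrez 12862) encodes the heart and skeletal muscle form of subunit 6A of cytochrome c oxidase. It stood at 6.33, 6.68, 6.55, 6.73 and 7.40 on the aged arrays, against 6.23, 5.95, 6.00, 6.06 and 5.87 on the young ones. All aged arrays lay above all young ones, the lowest aged array by a small margin, and aged array 5 was the highest. The difference was 0.72 ± 0.17, a 1.65-fold rise (adjusted p = 0.0274). A second, dimmer probe set of Cox6a2 gave a difference of 0.99. Without young array 2, 3, 4 or 5 the adjusted p lay between 0.0571 and 0.0676, and in a fit of the aged and young arrays alone it was 0.0573. With quantile normalization it was 0.0639 (0.67 ± 0.19), with the Gapdh and Actb difference as covariate 0.0840 (0.75 ± 0.22), and within sets 1 and 2 the differences were 0.41 and 0.98, neither called (adjusted p = 0.259 and 0.295).

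The other muscle isoforms had positive differences that did not pass. Cox8b, the muscle form of subunit 8 in rodents, stood at 5.17, 5.49, 6.14, 5.46 and 6.01 on aged arrays, against 4.88, 4.42, 5.61, 4.92 and 4.61 on young arrays. The groups overlapped through young array 3, and the difference was 0.76 ± 0.25 (adjusted p = 0.102). It passed only when young array 3 was left out (0.95 ± 0.23, adjusted p = 0.0413), and it was 0.19 within set 1 and 1.35 within set 2. Cox7a1, the muscle form of subunit 7A, stood at 4.38, 5.40, 4.12, 5.39 and 5.80 on aged arrays, against 4.85, 4.28, 4.79, 4.31 and 3.90 on young arrays. Aged arrays 1 and 3 lay among the young ones, and the difference was 0.59 ± 0.29 (adjusted p = 0.328). The general counterparts were closer together: Cox6a1 differed by -0.14 ± 0.12 (adjusted p = 0.619), Cox7a2 by 0.14 ± 0.13 (0.649) and Cox8a by 0.03 ± 0.12 (0.932). Whether a muscle isoform differed from its counterpart in its response to age was not tested.

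**Figure D2:**
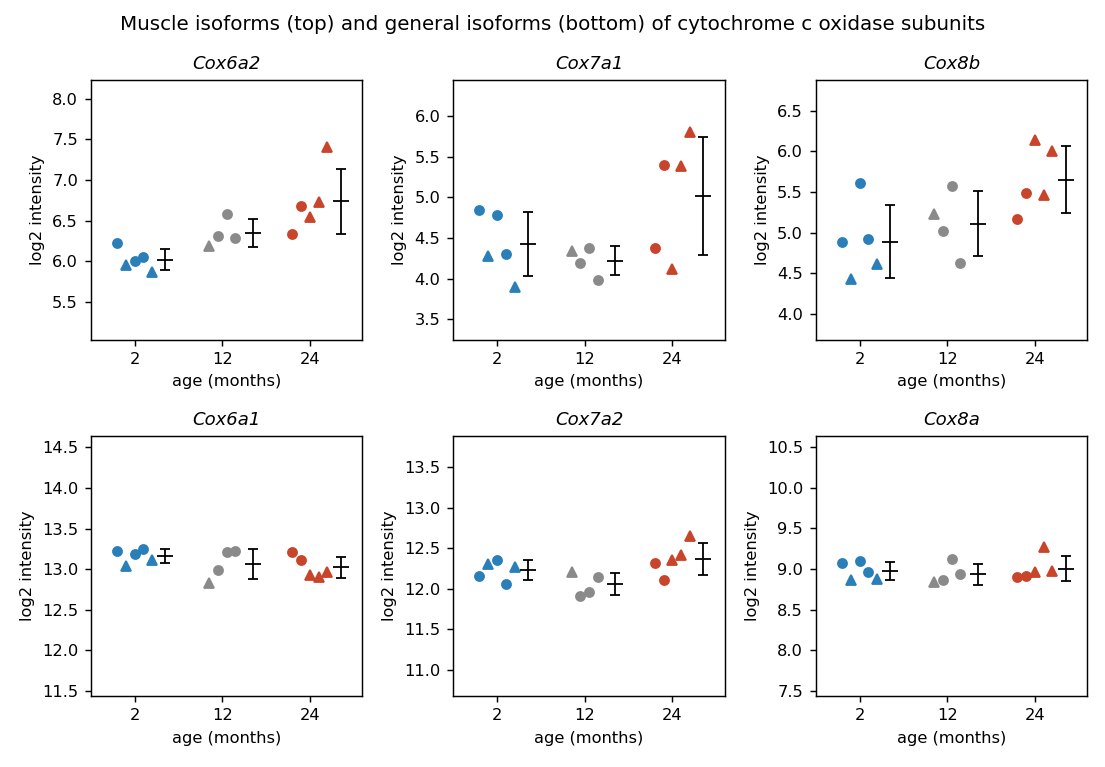
Log2 intensity on each array by age for the muscle isoforms Cox6a2, Cox7a1 and Cox8b (top) and the general isoforms Cox6a1, Cox7a2 and Cox8a (bottom), with circles for set 1, triangles for set 2, and mean ± SD beside the points. Each panel spans the same log2 range, and the 24-month points of the upper row reach 7.40, 5.80 and 6.14.

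Transcripts of mature myofibres were also higher on the aged arrays. Of 23 measured myofibre markers, 13 rose and 0 fell in aged against young cells (median 1.60), and their mean was 7.67 ± 0.38 on aged arrays (7.13 to 8.13) and 6.32 ± 0.43 on young arrays (5.70 to 6.68, SD, n = 5 each). Ckm, the muscle creatine kinase, differed by 1.98 and Mb, the oxygen store myoglobin, by 1.60. Within set 1 the marker median was 0.79 with 3 called, and within set 2 it was 2.30 with 10 called. On middle-aged arrays the marker mean was 6.62 ± 0.31 (6.29 to 7.03, SD, n = 4). Aged array 5 was highest for the marker mean, for Cox6a2 and for Cox7a1, whereas Cox8b was highest on aged array 3. On aged array 3, second highest for the markers at 7.80, Cox7a1 had its lowest aged value, 4.12. The part of the myofibre transcripts in the isoform differences was not tested. In sorted bulk RNA, more cells or fragments of a type and more RNA per cell cannot be told apart.

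**Figure D3:**
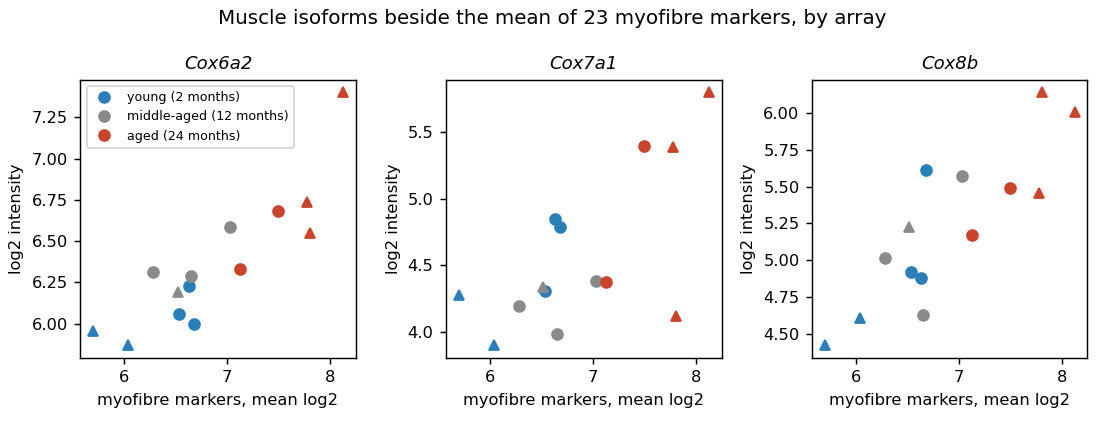
Log2 intensity of Cox6a2, Cox7a1 and Cox8b on each of the 14 arrays (vertical) against the mean log2 value of 23 myofibre markers on the same array (horizontal), coloured by age, with circles for set 1 and triangles for set 2. The 5 aged arrays occupy 7.13 to 8.13 on the horizontal axis and the 5 young ones 5.70 to 6.68.

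The remaining isoform sets of complex IV gave 0 calls between ages. Ndufa4l2, a paralogue of Ndufa4 known to be induced by hypoxia, stood at 6.11, 6.50, 5.69, 5.69 and 5.79 on aged arrays and 5.83, 6.05, 6.67 and 6.06 on middle-aged arrays, against 5.51, 5.24, 5.66, 5.40 and 5.28 on young arrays. The older arrays all exceeded the young arrays, by 0.54 ± 0.19 at 24 months (adjusted p = 0.137) and 0.74 ± 0.20 at 12 months (adjusted p = 0.0617). Ndufa4l2 was lower in set 2 at equal age (-0.43), a difference without a test because the sets were read from the same values. Its aged minus young difference was 0.78 within set 1 and 0.47 within set 2 (adjusted p = 0.0882 and 0.391). Both age differences passed in a fit that included the array set (0.63 ± 0.14, adjusted p = 0.0158, and 0.67 ± 0.15, adjusted p = 0.0187), although a term derived from the same values is no independent support. The 12-month difference also passed in a fit of its own groups alone (adjusted p = 0.0442), with array weights (0.0197), with the 3' minus 5' covariate (0.87 ± 0.20, 0.0285), without middle-aged array 1 (0.84 ± 0.21, 0.0474) and without aged array 2 (0.0394). Under every other alternative run it did not pass, among them quantile normalization, median centring and the remaining fits with 1 array left out. Tenocyte markers were also high at both older ages: 8 of 10 measured rose in each comparison, and their mean was 10.49 ± 0.37 on aged arrays (SD, n = 5) and 10.58 ± 0.55 on middle-aged arrays (n = 4), against 8.11 ± 0.56 on young arrays (n = 5). Tnmd, the tendon membrane protein tenomodulin, averaged 11.11, 11.07 and 8.13 on the same groups. At 2, 12 and 24 months fibro-adipogenic markers averaged 9.33, 9.89 and 9.84, and adipocyte markers 5.58, 6.29 and 6.38. Of 9 measured fibro-adipogenic markers 2 rose and 0 fell at each older age. Of 5 measured adipocyte markers 1 rose at 24 months and 0 at 12 months. The part of tenocyte, fibro-adipogenic or adipocyte transcripts in the Ndufa4l2 difference was not tested. Ndufa4 itself differed by -0.17 ± 0.21 and -0.58 ± 0.23 (adjusted p = 0.765 and 0.212).

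Cox4i2, the form of subunit 4 known from lung and low oxygen, averaged 3.78 ± 0.09 on aged and 4.13 ± 0.22 on young arrays (SD, n = 5 each), a difference of -0.36 ± 0.13 (adjusted p = 0.146). Of its aged values 4 of 5 lay below the 40th percentile, so the level there is near the floor of the array. Its general form Cox4i1 differed by -0.16 ± 0.12 (adjusted p = 0.554). Cox7a2l differed by -0.25 ± 0.11 (0.268), the testis forms Cox6b2 and Cox8c by -0.09 ± 0.25 and -0.05 ± 0.15 (0.903 and 0.915), and Cox6b1 by -0.06 ± 0.13 (0.875). None of these differences passed the test.

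Complex I, with 33 measured members, had a median aged minus young difference of 0.07, and none of its members was called in a pairwise comparison. Of its catalytic core, which holds the flavin and iron-sulphur clusters, 6 were measured, with a median of 0.26 against 0.04 over the 27 accessory subunits. Ndufv1 and Ndufv2 of the NADH-binding tip differed by 0.24 ± 0.13 and 0.28 ± 0.17 (adjusted p = 0.387 and 0.460), and Ndufs7 of the ubiquinone-reducing arm by 0.31 ± 0.20 (0.477). Ndufs1 and Ndufs8 had the opposite sign, at -0.36 ± 0.23 and -0.30 ± 0.23 (0.472 and 0.563). Ndufs3, in the same arm, had 0.49 ± 0.19 (0.180). The core thus held members on both sides of zero. Ndufb10, an accessory subunit of the membrane arm, stood at 9.66, 9.64, 9.99, 10.14 and 9.95 on aged arrays, against 9.32, 9.55, 9.53, 9.40 and 9.49 on young arrays, without overlap and without a call (0.42 ± 0.15, adjusted p = 0.150).

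In complex II, whose 4 subunits also serve the tricarboxylic acid (TCA) cycle, the median was 0.26. Sdha, the flavoprotein that oxidizes succinate, differed by 0.33 ± 0.18 between aged and young cells (adjusted p = 0.40). The iron-sulphur subunit Sdhb had 0.27 ± 0.14 (0.352), and the membrane anchors Sdhc and Sdhd -0.19 ± 0.14 and 0.25 ± 0.19 (0.568 and 0.562). The probe sets of Sdhc disagreed, with 0.22 for the dimmer of its 2. Complex III (8 members) had a median of 0.06 and complex IV (18) of -0.06. Complex V (17) had a median of 0.12, with Atp5a1 and Atp5b, the alpha and beta subunits of the catalytic head, at -0.15 ± 0.13 and 0.14 ± 0.19 (0.606 and 0.777). Atp5g1, Atp5g2 and Atp5g3, separate genes for the same membrane ring protein, had 0.10 ± 0.14, 0.40 ± 0.27 and 0.13 ± 0.12 (0.797, 0.507 and 0.665). No complex contributed a call apart from the Cox6a2 call of complex IV. The medians of most complexes had opposite signs in the array sets. In set 1 alone they were -0.10, -0.047, -0.23 and -0.037 for complexes I, II, III and V, and in set 2 alone 0.26, 0.46, 0.18 and 0.18. Complex IV had -0.10 in set 1 and 0.034 in set 2, and the assembly factors 0.17 and 0.14. The median of all 88 members was -0.075 in set 1 alone and 0.18 in set 2 alone.

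Over the 3 ages, the pattern most members shared was a low at 12 months. The lowest of the 3 age means fell at 12 months in 72 of 88 members (81.8%), against 36.7% of all genes. That held for 27 of 33 complex I members, 2 of 4 in complex II, 8 of 8 in complex III, 11 of 18 in complex IV, 16 of 17 in complex V and 8 of 8 assembly factors. Members share arrays and normalization and are not independent, so these counts carry no test. For Sdha and Sdhc of complex II, not lowest at 12 months, the pattern depends on the probe set. The probe sets used gave 0.11 and 0.20 in middle-aged against young cells, and the next brightest -0.24 and -0.37. Another, dim probe set of Sdha gave 0.46. In middle-aged against young cells 78 members had a negative sign (88.6%, against 56.6% of all genes), with a median of -0.21 against -0.04. In aged against middle-aged cells 79 had a positive sign (89.8%, against 51.4%), with a median of 0.31 against 0.01. Both comparisons share the 4 middle-aged arrays.

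**Figure D4:**
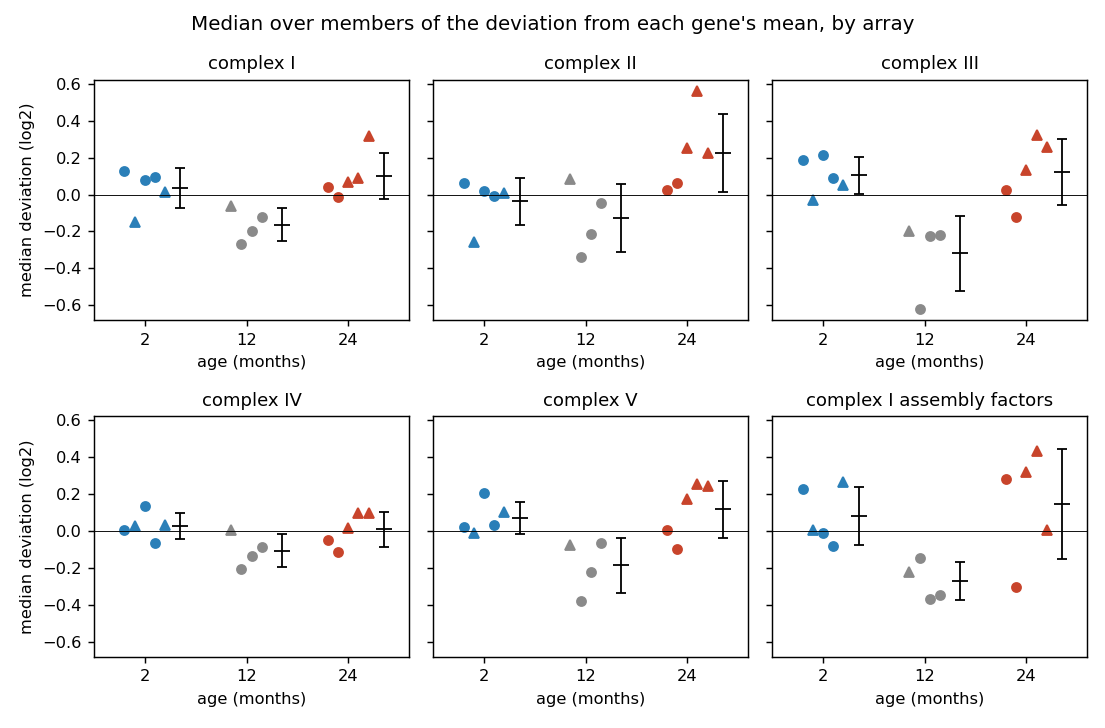
Median over the members of each complex of the log2 deviation from each gene's mean over 14 arrays, for each array by age, with circles for set 1, triangles for set 2, and mean ± SD beside the points. The 4 middle-aged arrays lie at or below -0.20 for complex III and at or below -0.06 for complex I.

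No member was called by limma in either of these comparisons, where 2.97% (middle-aged against young, 1.75% higher and 1.22% lower) and 0% (aged against middle-aged) of all genes were called. At an unadjusted p under 0.05 there were 22 members (25.0%, against 16.3% of all genes) in middle-aged against young cells and 35 (39.8%, against 9.62%) in aged against middle-aged cells. All middle-aged arrays lay below all young ones for 9 members (10.2%, against 5.07%) and above for 1 (1.14%, against 3.62%). All aged arrays lay above all middle-aged ones for 9 (10.2%, against 1.41%) and below for 0 (0% against 1.08%). Members counted in both directions were Ndufa12, Uqcrc2, Cox5b, Atp5j2 and Atp5md, named because of these values. Array by array, the median deviation of the members from their own means was -0.06, -0.30, -0.20 and -0.13 on the middle-aged arrays. It was 0.02, -0.08, 0.10, 0.23 and 0.24 on the aged arrays and 0.10, -0.07, 0.12, 0.03 and 0.04 on the young arrays. The middle-aged range thus overlapped with the others through middle-aged array 1, aged array 2 and young array 2. Of the middle-aged arrays 3 belong to set 1, and within set 1 the medians were -0.31 for middle-aged against young and 0.19 for aged against middle-aged cells.

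Ndufs3 (Entrez 68349), a core subunit of complex I in the arm that reduces ubiquinone, was the only member called in the F test over the 3 ages (adjusted p = 0.0217, against 4.16% of all genes called). It stood at 8.41, 8.36, 8.49, 8.07 and 8.38 at 2 months, at 8.39, 7.75, 7.78 and 7.34 at 12 months and at 8.85, 8.39, 9.10, 9.08 and 8.76 at 24 months. Of the middle-aged arrays 3 lay below all others, while middle-aged array 1 lay among the young ones. The aged minus middle-aged difference was 1.02 ± 0.20, or 2.02-fold (adjusted p = 0.242 in that comparison, in which 0 genes of the array were called). The F call was not reached without middle-aged array 2, 3 or 4 (adjusted p = 0.0522 to 0.0596) or within set 2 (0.520), and it was reached within set 1 (0.0495). Ndufs4, an accessory subunit beside the NADH-binding tip, averaged 6.80 ± 0.20, 6.32 ± 0.57 and 7.40 ± 0.59 at 2, 12 and 24 months (SD, n = 5, 4 and 5, F test adjusted p = 0.111), and passed without middle-aged array 1. Its aged arrays 3, 4 and 5, all of set 2, stood at 7.91, 7.62 and 7.93 and its aged arrays 1 and 2 at 6.77 and 6.75.

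**Figure D5:**
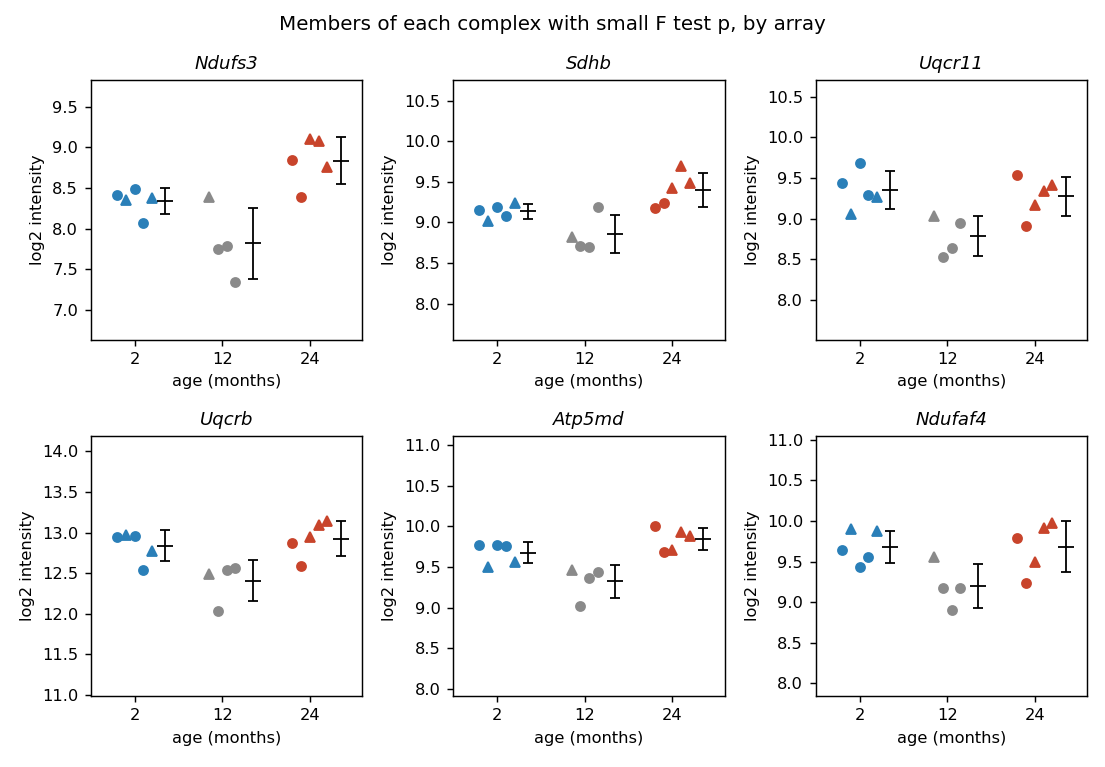
Log2 intensity on each array by age for Ndufs3, Sdhb, Uqcr11, Uqcrb, Atp5md and Ndufaf4, with circles for set 1, triangles for set 2, and mean ± SD beside the points. Each panel spans the same log2 range, and the mean of each gene is lowest at 12 months.

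The members of complexes II, III and V with the smallest F test p also had their lowest mean at 12 months, without passing. In complex IV those members were Cox6a2 and Ndufa4l2 (F test adjusted p = 0.0672 and 0.0884), which were lowest at 2 months. Sdhb averaged 9.13 ± 0.09, 8.85 ± 0.23 and 9.40 ± 0.21 at 2, 12 and 24 months (F test adjusted p = 0.101), and Sdhd 7.85 ± 0.30, 7.53 ± 0.36 and 8.10 ± 0.22 (0.236). Uqcr11, a small subunit of complex III, stood at 9.03, 8.53, 8.63 and 8.95 at 12 months, below all young arrays (9.06 to 9.69), with a difference of -0.56 ± 0.17 (adjusted p = 0.0959). It passed with array weights (-0.59 ± 0.15, adjusted p = 0.0270). Uqcrb, which helps form the ubiquinone site of complex III, averaged 12.84 ± 0.19, 12.41 ± 0.25 and 12.93 ± 0.22 (F test adjusted p = 0.149), with middle-aged array 2 lowest at 12.04. Uqcrfs1, the Rieske iron-sulphur protein, averaged 9.77 ± 0.10, 9.27 ± 0.25 and 9.86 ± 0.66 (0.363), and its 12-month difference passed within set 1 (-0.67 ± 0.17, adjusted p = 0.0448). Its aged values spread from 9.04 to 10.78, wider than at the other ages.

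Of complex V, Atp5md, a small membrane subunit, stood at 9.47, 9.02, 9.36 and 9.44 at 12 months, below all young (9.50 to 9.78) and all aged arrays (9.68 to 10.01). Its F test adjusted p was 0.0889. Atp5o, in the peripheral stalk, averaged 9.38 ± 0.29, 8.97 ± 0.34 and 9.68 ± 0.36 at 2, 12 and 24 months (0.165). Among the assembly factors, Ndufaf1 averaged 5.62 ± 0.48, 4.88 ± 0.40 and 5.63 ± 0.63 (0.289) and Ndufaf4 9.68 ± 0.20, 9.20 ± 0.27 and 9.68 ± 0.31 (0.220). Their aged and young means were nearly equal, with the 12-month mean below both by a difference that did not pass.

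Probe sets of the same gene did not always move together. Of the 88 members 48 had more than 1 kept probe set, and in 20 of these the aged minus young differences fell on both sides of zero. For Ndufs8, the probe set used has sequence shared between transcripts and gave -0.29 in middle-aged against young cells. When such probe sets were left out, the brighter of its other 2 probe sets gave -0.75 ± 0.16 (adjusted p = 0.0230) and the dimmer -0.17, so the call depends on the probe set chosen. For Ndufs4, the 3 kept probe sets gave 0.59, -0.42 and 0.42 in aged against young cells.

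Genes around the respiratory chain were taken from lists of assembly factors, electron carriers, regulators, TCA cycle enzymes and carriers. Of 25 measured assembly factors of complexes II to V, 1 rose and 1 fell in aged against young cells (median -0.02), near the 3.05% higher and 1.25% lower among all genes. The one that fell was Bcs1l, which inserts the Rieske protein into complex III, at 5.97, 6.05, 6.44, 5.86 and 5.20 on aged arrays, against 7.09, 6.53, 6.93, 7.36 and 6.36 on young arrays (-0.95 ± 0.24, adjusted p = 0.0325). Only aged array 3 lay above the lowest young array. Its call was lost within set 2 (-0.61, 0.629), in a fit of those groups alone (0.0543) and with the 3' minus 5' covariate (-0.73 ± 0.29, 0.200). It was also lost when young array 1, 3 or 4, or aged array 1, 4 or 5, was left out (0.0544 to 0.0910). Uqcc2, an assembly factor of complex III, rose by 0.75 ± 0.20 (adjusted p = 0.0479), with aged arrays from 8.81 to 9.47 above young arrays from 7.77 to 8.63. That call was at the threshold and was lost without any young array, without middle-aged array 1 or 4 or without aged array 1, 2, 4 or 5 (0.0565 to 0.104). It was also lost within each set (0.61 and 0.96, adjusted p = 0.212 and 0.333) and when all kept probe sets were averaged (0.54 ± 0.16, 0.0732).

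Ckmt2, the mitochondrial creatine kinase of muscle, rose by 2.01 ± 0.39 (4.02-fold, adjusted p = 0.00765). Although a kinase, it was on the list of carriers, porins and uncouplers, and was the only 1 of its 16 measured genes to pass. It stood at 6.99, 6.95, 7.70, 7.92 and 8.44 on aged arrays, against 6.22, 4.69, 6.11, 6.05 and 4.89 on young arrays, without overlap, and within set 1 it differed by 0.84 without a call (adjusted p = 0.258). None of 14 complex I assembly factors (8 of them members), 14 electron carriers, 19 regulators and 16 TCA cycle enzymes was called by limma. At an unadjusted p under 0.05 there were 0, 0, 3 and 2 of them in aged against young cells, against 16.6% of all genes. All 16 measured enzymes of the TCA cycle list had a negative sign in middle-aged against young cells. Their median was -0.45, and 56.6% of all genes had that sign. Of the 16, 8 had an unadjusted p under 0.05, against 16.3% of all genes, and 14 had their lowest mean at 12 months (87.5%, against 36.7%). Sdha and Sdhc, counted with complex II, are not among the 16. On the probe sets used they differed by 0.11 and 0.20 in the same comparison, and Sdhb and Sdhd by -0.28 and -0.33. Cs, the citrate synthase that opens the cycle, had -0.50 ± 0.15 (adjusted p = 0.0846). Among the regulators, Ppargc1a, the coactivator known to drive mitochondrial biogenesis, differed by -0.55 ± 0.39 between aged and young cells, with 3 of 14 values below the 40th percentile, and Tfam, which maintains mitochondrial DNA, by 0.17 ± 0.28 (adjusted p = 0.534 and 0.824). The mitochondria-encoded subunits were represented by ND5 alone, which averaged 10.90 ± 0.22, 11.55 ± 0.34 and 11.19 ± 0.49 at 2, 12 and 24 months (F test adjusted p = 0.269), so its mean was highest where the means of most nuclear-encoded members were lowest.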

How the data were processed

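Expression was measured on 14 arrays of RNA from sorted mouse muscle precursor cells. RMA was applied by the authors, per the submitters' processing notes. For the RMA version and annotation, the sources used here give nothing. The values as deposited are linear intensities, of which log2 was taken with no further normalization. Of 45101 probe sets, 34945 carried 1 symbol in the platform annotation, and 23887 of those lay above the 40th percentile of their array on at least 4 of 14 arrays. Each of the 13579 genes was read from whichever kept probe set had the highest mean.

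All 14 arrays entered 1 fit per gene with age as the only factor (limma 3.58.1, R 4.3.3), with Benjamini-Hochberg adjustment over all genes. The fit was checked on simulated data with independent noise for each gene. That check does not cover variation shared between genes, such as that of the array sets. The number of arrays limits the precision. Named were called members, the 2 of smallest F test p per complex, isoform sets and catalytic subunits, and called genes of the pathway lists. Members and lists were chosen with earlier results of these data known. Alternatives changed the dim filter, probe set choice, normalization, covariates, variance model and arrays included.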

Additional observations from a re-analysis of the deposited data

Results flagged for a closer look

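Single arrays stood apart from the rest of their age group in 11 of 132 checks of a member or complex median, by a gap larger than Dixon's critical value, and chance flags about 1 in 20. Sdha on young array 2 stood at 9.35, against 9.83 or more on the other young arrays, and the median deviation of complex II on that array was -0.26, against -0.01 to 0.06. Cox4i2 on young array 2 was at 4.51 (others 3.98 to 4.13) and on aged array 4 at 3.93 (others 3.71 to 3.76). Uqcrb on middle-aged array 2 was at 12.04 (others 12.49 to 12.57), and the median deviation of complex III on that array was -0.62, against -0.23 to -0.20. Atp5g3 and Cox7a2l on middle-aged array 1 were at 12.09 (others 11.84 to 11.88) and 12.52 (others 12.44 to 12.45). Atp5b on young array 3 was at 11.08 (others 10.67 to 10.77), Cox4i1 on young array 4 at 12.57 (others 12.79 to 12.87) and Cox8a on aged array 4 at 9.27 (others 8.90 to 8.98).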

How the results depend on the processing

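In aged against young cells the count of called members was 1 (Cox6a2). It was 0 with quantile normalization, with the 3' minus 5' covariate, within array set 1, within array set 2 and in a fit of those groups alone. It was 2 with the array set as a term, and 0 to 1 when each array was left out. In middle-aged against young cells the count was 0. It was 1 with an intensity trend, with the array set as a term, when shared-sequence probe sets were left out and in a fit of those groups alone. It was 2 with the 3' minus 5' covariate, 3 within array set 1, 6 with array weights (Ndufa4l2 higher, Atp5c1, Atp5j, Cox5b, Ndufs3 and Uqcr11 lower) and 0 to 1 with arrays left out. In aged against middle-aged cells it was 0 under each alternative run. The F test count was 1 (Ndufs3), 2 with the array set as a term, with the 3' minus 5' covariate or when shared-sequence probe sets were left out, 3 with array weights, 0 within array set 2 and 0 to 2 with arrays left out. With a replicate block the aged against young and F test counts were both 0 (Cox6a2 0.72, adjusted p = 0.0634; Ndufs3 0.0541), although the numbers do not pair the arrays: deviations of same-numbered arrays correlated from -0.48 to 0.26 over 13 pairs, 5 of them above 0.1.

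The median over members was 0.06 in aged against young cells (0.03 to 0.12 with arrays left out, -0.075 within set 1, 0.18 within set 2). It was -0.21 in middle-aged against young (-0.25 to -0.18, and -0.10 within set 2) and 0.31 in aged against middle-aged cells (0.26 to 0.37, and 0.19 within set 1). Other alternatives moved it by less than 0.108, the SD between arrays of 1 age. No called member changed sign. The causes were not tested.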
